A study of Mus musculus with 30 samples.

Results

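Snf2h supplies the ATPase activity of ISWI chromatin remodellers, and the regions described here are the narrow sites at which it was called in both of a pair of B lymphoma lines and at which no cohesin was called in a fibroblast line. They were chosen by the peak calls themselves. The deposited Snf2h regions of wild-type and mutant CH12 cells were merged on chromosomes 1 to 19, and a merged region was kept if it was called in both lists, was under 500 bp wide and shared no base with any region of 6 cohesin lists. This left 5379 regions of 29815 merged Snf2h regions (18.04%). What the rule used is given as a description: 34.1% of all merged regions were called in both lists, and 65.5% of those shared no base with cohesin.

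The study held 30 mouse samples in 30 groups of 1 library, and the 8 ChIP-seq peak lists used here came from 8 of them. CH12 is a mouse B lymphoma line. Its mutant carried a homozygous Cas9-made deletion of zinc fingers 9 to 11 in the Ctcf gene, and neither CH12 line carried an expression vector or had a further treatment. The cohesin lists came from NIH3T3, an immortalized mouse embryonic fibroblast line, with antibodies against SMC1, RAD21 and SMC3, in cells with a stable empty vector that expressed beta-galactosidase and in clone 2 of cells that stably expressed BORIS from a CpG-free plasmid. The absence of cohesin is therefore an absence from fibroblast lists, and cohesin in CH12 cells was not analysed here. The labels do not say whether the mutant CH12 line was 1 clone. The region names in both Snf2h lists carry a tag that may mean pooled replicates, which the labels do not state. With 1 list a group, no test between the lines was possible, and intervals below cover counting error only.

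ISWI remodellers use ATP to slide nucleosomes along DNA and to space them evenly. Snf2h (gene Smarca5) is the motor of several such complexes and pairs with different partner subunits in each. In mouse cells it is known to be needed for strong CTCF binding and for the regular nucleosome arrays around CTCF sites, and cohesin rings moving along DNA are held up at bound CTCF. CTCF binding at the members was not analysed here. Their positions are in the coordinates of the lists, and mm9 is the only mouse build in the submitters' processing notes. No genome or gene annotation of that build was used here, so the regions carry positions and no gene names, exon or promoter annotation or base sequence.

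Narrow Snf2h regions without cohesin were small and mostly of modest height. Their merged width had a median of 331 bp (quartiles 285 and 391 bp) and they covered 1.82 Mb in all. They held 32.0% of the wild-type list (5382 of 16793 regions) and 22.9% of the mutant list (5379 of 23441). In 5376 of them each list contributed 1 region, and in the other 3 a single mutant region bridged 2 wild-type regions. These 3 were chr1:159243459-159243934, chr10:90599961-90600406 and chr11:67417937-67418417, named after their values were seen. The limit of 500 bp cut through a continuous range: the 3 widest members, on chromosomes 1, 4 and 5, were 499 bp wide, and the 3 narrowest regions left out by width were 500, 500 and 501 bp wide. The last of these (chr1:85341297-85341797) had wild-type and mutant folds of 2.76 and 2.69, close to the folds of 2.493 and 2.799 of the widest member on that chromosome (chr1:85102322-85102820). Pileups in wild type and mutant were 27 and 27 at chr4:3639000-3639498 and 17 and 25 at chr5:5336356-5336854, just inside the limit. Just outside it they were 24 and 28 at chr6:115895633-115896132 and 49 and 73 at chr17:57429949-57430448.

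The height of a region was read as its pileup, the number of fragments that cover its summit (the position of highest fragment density). It was recovered from the deposited fold and p-value. In wild type the members' pileup had a median of 27 fragments (quartiles 22 and 35, range 13 to 242), and in the mutant a median of 29 (22 and 40, range 12 to 285). The genome-wide background rate was 3.36 fragments in the wild-type library and 2.58 in the mutant library. Divided by this rate, the median pileup came to 8.04 for wild type and 11.2 for the mutant. Its highest values were 72.05 in wild type and 110.5 in the mutant, so a small number of members stood far above the rest.

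Against all regions called in both lists, members stood near the middle. They make up 52.9% of these regions, so their median rank is in part held near the middle by that overlap. Ranked by −log10 p over these 10165 regions in each list, the median member was at percentile 52.5 in wild type and 52.7 in the mutant. With Snf2h regions limited to a −log10 q of at least 10 it was below the middle, at 45.4 and 46.2. Narrow shared regions at cohesin sites, of which there were 2544, stood lower, at 41.7 and 39.5. A −log10 q of 10 or more in wild type and mutant alike was reached by 23.1% of members (1241 of 5379, 95% interval 22.0 to 24.2) and by 15.0% (13.6 to 16.4) of narrow shared regions at cohesin sites. Broad shared regions reached it at 29.1% (26.6 to 31.6) without cohesin and at 27.1% (24.3 to 30.0) at cohesin sites. Over all shared regions the share was 22.2% (21.4 to 23.0), near that of the members, which make up 52.9% of them. Width did not follow rank evenly. With members cut into 10 groups by wild-type −log10 p, the median width was 332 bp in the lowest group. It was 315 bp in group 6 and 372.5 bp in the highest. The choice of narrow regions called in both lists is tied to height, so these ranks describe the members and support no difference.

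The 8 members that were strongest in both lists were high in both lines. They had the highest values of the lower of their 2 percentiles by −log10 p among members, with 1 percentile from each list. Chromosome 18 was left out of this choice and of the other choices by rank, width, distance or density. At chr14:102674854-102675318 the pileup reached 238 fragments in wild type and 278 in mutant cells, with deposited folds of 22.2 and 25.9. At chr2:104658858-104659314 it was 193 and 285, at only 263 bp from a cohesin region that was called in 4 of 6 lists. The wild-type and mutant summits of the chromosome 14 site were 1 bp apart, and those of the chromosome 2 site 18 bp apart. A pair of sites followed on chromosome 13, with midpoints 516 kb apart and nearly equal values. At chr13:50242581-50243017 the pileup reached 140 in wild type and 229 in mutant cells. At chr13:50758860-50759288 it was 129 and 240. Their nearest cohesin regions were at 36879 and 36822 bp, each called in 1 list. The remaining 4 sites had pileups between 127 and 170 in wild type and between 130 and 170 in the mutant. They were chr12:118985796-118986266 (127 and 170), chr9:123782092-123782438 (134 and 138), chr17:13498725-13499212 (170 and 142) and chr14:9119052-9119459 (141 and 130). On the scale of pileup over the genome-wide rate all 8 were higher in the mutant, by factors of 1.09 to 2.42, while in fragments the last 2 of them were lower. Their summits lay 1 to 37 bp apart between the lines.

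For comparison, 3 members were picked as nearest the median of the lower of their 2 percentiles among members, about 36.9. They were sites of modest height. Among all shared regions they stood at percentiles 38.9, 38.9 and 76.0 in wild type and 69.8, 77.1 and 38.9 in the mutant, in the order below. None was near the median rank of members in either list. Wild-type and mutant pileups were 23 and 35 at chr2:162886841-162887102, 37 and 54 at chr14:103431159-103431465, and 35 and 23 at chr9:56738920-56739181. After division by the genome-wide rate the first of these was 1.98 times as high in the mutant, the second 1.90 times and the last 0.856 times.

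The CH12 lines differ in the presence of zinc fingers 9 to 11 of CTCF, and the same members were compared between them. Snf2h pileup relative to the genome-wide rate was higher in the mutant at most members and in each class of shared regions, and this direction depends on the scaling: a region with the same number of fragments in both lists has a ratio of 1.30, which comes from the background rates alone. The median ratio of mutant to wild type was 1.36 over members, 1.30 over narrow shared regions at cohesin sites, 1.40 over broad shared regions without cohesin, 1.43 over broad shared regions at cohesin sites and 1.36 over all shared regions. It was above 1 at 86.4% of members (4649 of 5379, 95% interval 85.5 to 87.3). Over all shared regions this share was 87.7% (87.0 to 88.3), near that of the members, which make up 52.9% of them. On this scale it was 87.4% (86.1 to 88.7) for narrow regions at cohesin sites, 89.6% (87.8 to 91.2) for broad regions without cohesin and 92.9% (91.1 to 94.5) for broad regions at cohesin sites. In plain fragments, 2825 members had a larger pileup in the mutant, 2259 a smaller one and 295 the same, so 52.5% were higher in the mutant without the scaling. This count is given for members only, with no like share over all shared regions. Read totals were not used. If the narrowest region of each list (163 bp in wild type and 187 bp in the mutant) is taken as its fragment length, the background rates correspond to 20.6 fragments per kb in wild type and 13.8 in the mutant, an estimate that rests on that assumption. Depth, enrichment of the library and cell line cannot be told apart as sources of the ratio with 1 library each.

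On the same depth-scaled ratio, with the median of 1.36 not taken out, 573 members (10.7%, 9.84 to 11.5) were at least 2-fold higher in the mutant, where 9.75% of all shared regions were. The share was 7.11% (6.15 to 8.18) for narrow shared regions at cohesin sites. For broad shared regions it was 10.5% without cohesin and 10.6% at cohesin sites. At least 2-fold lower were 2 members (0.0372%), where 0.059% of all shared regions were. The unequal counts in the 2 directions contain the median ratio itself. The members' shares were near those of all shared regions, of which members make up 52.9%. These 2 were chr2:129239085-129239421, with a pileup of 46 in wild type and 17 in the mutant, and chr5:5824449-5824752, with 65 and 20, the second named after its values were seen. The order of heights was kept in part, with a Spearman rho of 0.707 between the pileups of the 2 lists over 5379 members. Over narrow shared regions at cohesin sites it was 0.708. Regions are not replicates, and both lists entered the choice of the members.

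**Figure D1:**
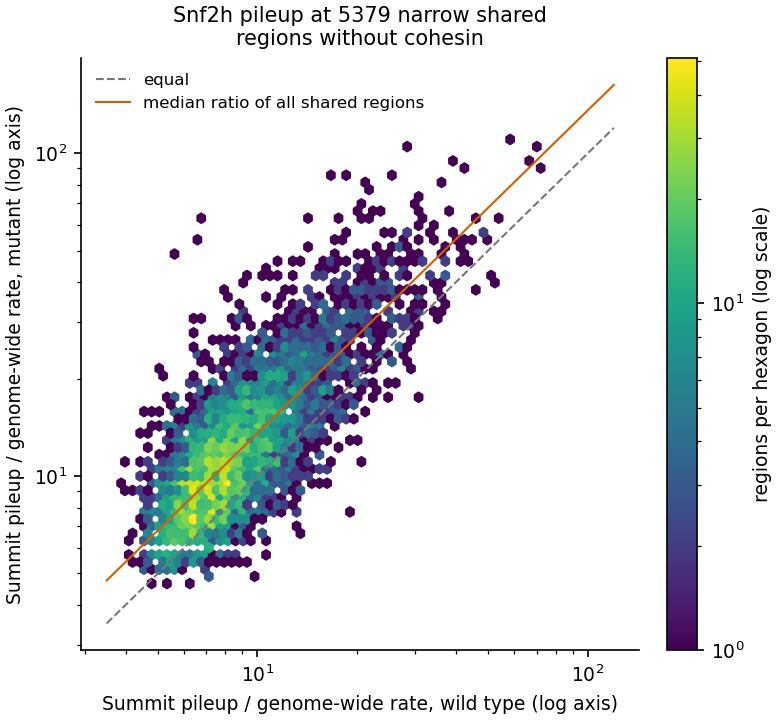
Pileup at the summit divided by the genome-wide background rate, in wild type (x axis) and in the mutant (y axis), both on log axes, for the 5379 members, with colour giving the number of regions in each hexagon on a log scale. The cloud follows the solid line, the median ratio of 1.36 over all regions called in both lists, and lies mostly above the dashed line of equal values.

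Single members had far apart ranks in the lines, in either direction. Chromosome 18 was again left out of the choice. Ranked among all regions called in both lists, the largest gain in the mutant was at chr17:7523320-7523701, where 21 fragments were piled up in wild type and 79 in mutant cells and the percentile went from 2.96 to 93.7. The next 3 gains were at chr1:167118997-167119270 (19 and 44 fragments), chr10:60394111-60394513 (23 and 80) and chr4:139659889-139660235 (16 and 42). After division by the genome-wide rate these 4 regions were 3.01 to 4.90 times as high in the mutant. The largest loss was at the chromosome 2 region named above, from percentile 90.7 to 2.13. The next 3 losses were at chr16:21122920-21123284 (33 and 13 fragments), chr1:89856597-89856926 (34 and 17) and chr2:148389138-148389534 (44 and 21), and the mutant value of the 4 regions was 0.481 to 0.651 times that of wild type.

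The largest ratios by pileup, picked after the values were seen, were at chr8:123858012-123858414 and chr4:124013579-124013992. The first had 23 fragments in wild type and 164 in the mutant, a ratio of 9.28 after division by the genome-wide rate. The second had 19 and 126, a ratio of 8.63. In both, the wild-type pileup was below the members' median of 27, and the summits were 30 and 33 bp apart.

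**Figure D2:**
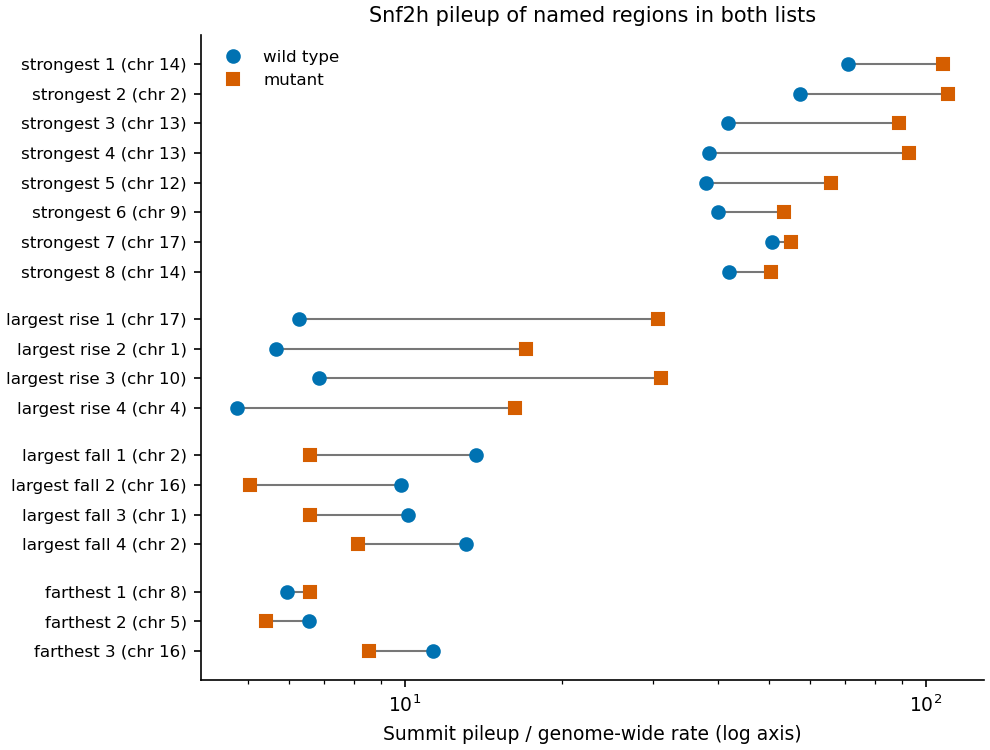
Pileup at the summit divided by the genome-wide background rate (x axis, log) in wild type (circles) and in the mutant (squares) for the 8 members strongest in both lists, the 4 with the largest gain and the 4 with the largest loss of rank in the mutant, and the 3 farthest from cohesin, each with its chromosome. Chromosome 18 was left out of the choice. On this scale the 8 strongest sites are all higher in the mutant (2 of them are lower in fragments), by 1.09 to 2.42 times, and the 4 sites with the largest gain by 3.01 to 4.90 times.

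The rule bounds the distance between the summits of the 2 lines, since the regions had to meet within a merged width under 500 bp, so their distance is in part set by the choice. The wild-type and mutant summits were a median of 30 bp apart (quartiles 13 and 67 bp), against 28 bp with widths under 400 bp and 33 bp with widths under 600 bp. They were within 10 bp at 21.0% of members (19.9 to 22.1), within 50 bp at 65.9% (64.7 to 67.2) and at the same base at 53 members. The mutant summit was at the higher coordinate in 2660 members and at the lower in 2666. At narrow shared regions at cohesin sites the median was 42.5 bp, and 56.2% (54.2 to 58.1) of summit pairs were within 50 bp. In broad shared regions, which leave more room between summits, the median was 68 bp without cohesin and 65 bp at cohesin sites. Within 50 bp were 42.7% and 44.8% of their summit pairs, so the order of the narrow regions was not seen in broad ones. With Snf2h regions limited to a −log10 q of at least 10, 1242 members were left and their median was 15 bp.

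Summits were closer together at taller members, with a Spearman rho of −0.325 between wild-type pileup and summit distance. Among the 538 members with the lowest wild-type −log10 p the median summit distance was 77 bp, and among the 538 with the highest it was 12 bp. Members and narrow regions at cohesin sites were therefore set side by side at like wild-type pileup. Up to 22 fragments the medians were 49 bp in 1373 members and 64 bp in 768 regions at cohesin sites. From 23 to 27 fragments they were 39.5 and 50 bp, and from 28 to 34 fragments 30 and 39 bp. From 35 fragments upward they were 17 bp in 1420 members and 19 bp in 509 regions. The members' summits were thus the closer ones in each of 4 height classes, but the intervals of the medians met or overlapped in the upper 2 classes (28 to 33 and 33 to 44 bp, and 16 to 18 and 17 to 22 bp). The members were also the narrower regions in each class, by 14 to 21 bp in median merged width, and had the lower local background in each, from 1.45 against 1.51 times the genome-wide rate in the lowest class to 2.24 against 2.34 in the highest in wild type. Mutant pileup was not matched. From the lowest class up, the median log2 ratio of mutant to wild type was 0.459, 0.381, 0.426 and 0.455 in members. At cohesin sites it was 0.448, 0.381, 0.332 and 0.421. Width, background and mutant pileup were not adjusted for, and their part in the summit distance was not tested.

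**Figure D3:**
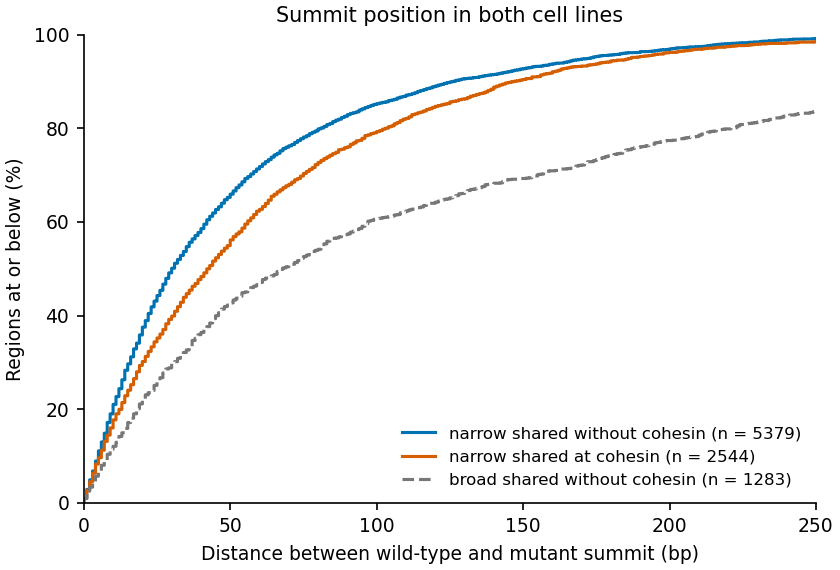
Cumulative share of regions (y axis, percent) by the distance between the wild-type and the mutant summit (x axis, bp, shown to 250 bp) for narrow shared regions without cohesin, narrow shared regions at cohesin sites and broad shared regions without cohesin. At 50 bp the curves stand at 65.9%, 56.2% and 42.7%.

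The regions were wider in the mutant list at most members. The median width was 246 bp in the wild-type list and 301 bp in the mutant list, and 74.98% of members (73.8 to 76.1) were wider in the mutant. This share was 73.0% (71.3 to 74.8) for narrow shared regions at cohesin sites, 74.1% (71.6 to 76.5) for broad shared regions without cohesin and 77.6% for broad shared regions at cohesin sites. The narrowest region of each whole list, which peak callers commonly set from the fragment length, was 163 bp in wild type and 187 bp in the mutant. The wild-type region lay wholly inside the mutant region at 45.0% of members (43.7 to 46.3) and at 39.7% of narrow shared regions at cohesin sites (37.8 to 41.6). For broad shared regions it was 43.4% without cohesin and 46.1% at cohesin sites. The reverse held at 7.86% of members.

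The rule required that no base be shared with cohesin, and the members lay at a wide range of distances from it. The median distance to the nearest cohesin region was 3617 bp (quartiles 1177 and 9352 bp), counting an adjacent base as 1 bp. Within 200 bp of cohesin were 5.86% of members, within 1 kb 22.3% (21.2 to 23.4) and within 5 kb 58.6%. The share within 1 kb was 20.0% for broad shared regions without cohesin, 21.1% for regions without cohesin called in wild type alone and 24.2% for those called in the mutant alone. The median distance in these classes was 4192, 4400 and 3696 bp. The nearest cohesin region was called in all 6 lists for 35.9% of members (34.7 to 37.2) and in 1 list for 23.5%. The share for all 6 lists was similar in the other classes without cohesin, at 34.8% (32.2 to 37.5) for broad shared regions, 36.2% (34.7 to 37.7) for regions called in wild type alone and 36.2% (35.2 to 37.3) for those called in the mutant alone. With cohesin regions limited to a −log10 q of at least 10 the median distance was 6188 bp, and with members limited to those without cohesin within 1 kb it was 5476 bp.

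The 3 nearest members touched a cohesin region without sharing a base. They were chr2:26441771-26442183, with pileups of 107 in wild type and 119 in the mutant, chr2:156879888-156880340 with 47 and 46, and chr17:35185555-35186040 with 26 and 40. The first was at percentile 98.9 in wild type and 98.2 in the mutant among all shared regions. At the other end, the 3 farthest members lay 664430, 563825 and 563532 bp from cohesin, at chr8:99739012-99739305, chr5:70659572-70659765 and chr16:83905256-83905691. Their wild-type and mutant pileups were 20 and 17, 22 and 14, and 38 and 22. In fragments all 3 were lower in the mutant, and after division by the genome-wide rate the first was 1.11 times as high in the mutant and the others 0.828 and 0.754 times.

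The local background at the summit, a rate that the peak caller takes from the surroundings of a region, was lower at members far from cohesin than at members near it. Over the genome-wide rate it had a median of 1.95 in wild type and 2.25 in the mutant for 315 members within 200 bp, and of 1.99 and 2.30 for 883 members from 200 bp to 1 kb away. It was 1.83 and 2.07 for 1955 members from 1 to 5 kb away, 1.70 and 1.86 for 1660 members from 5 to 20 kb away, and 1.52 and 1.63 for 482 members from 20 to 100 kb away. Beyond 100 kb, in 84 members on 17 chromosomes, it was 1.32 and 1.28. There the wild-type background was at the genome-wide rate itself in 25 members (29.8%), against 200 of all members (3.72%). The wild-type pileup had a median of 27 fragments both within 200 bp and beyond 100 kb, while the mutant pileup had medians of 30, 31, 29, 27, 26 and 23 over the 6 steps. The median wild-type fold went from 3.74 to 4.78 along the same steps. The summit distance did not follow the cohesin distance, with medians of 26 to 32 bp in the 6 steps.

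The ratio of mutant to wild-type pileup was also lower far from cohesin. Its median log2 value was 0.49 both within 200 bp and from there to 1 kb, 0.45 from 1 to 5 kb, 0.42 from 5 to 20 kb, 0.34 from 20 to 100 kb and 0.14 beyond 100 kb. This corresponds to ratios of 1.41 at the near end and 1.10 at the far end. The share of members higher in the mutant was 89.8% (283 of 315) at the near end and 64.3% (54 of 84) at the far end on this scale. In fragments, where equal pileups correspond to a log2 ratio of 0.38, 177 of 315 members (56.2%) had more in the mutant at the near end and 22 of 84 (26.2%) at the far end. Across members, cohesin distance had a Spearman rho of −0.217 with the wild-type background, of −0.248 with the mutant background and of −0.119 with the log2 ratio. These are weak relations over 5379 regions that share 2 libraries.

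A lower background far from cohesin was also seen in the other Snf2h classes without cohesin. In regions called in wild type alone the background over the genome-wide rate was 1.82 within 200 bp and 1.26 beyond 100 kb, and in regions called in the mutant alone it was 2.07 and 1.19. Broad shared regions gave 2.17 and 1.80 in wild type, with 15 regions at the far end and no steady order between. Their median log2 ratio over the 6 steps was 0.55, 0.51, 0.56, 0.44, 0.44 and 0.23, with no steady order over the first steps. The value beyond 100 kb rests on the 15 regions, whose quartiles (0.02 and 0.77) lie on either side of the near-end median. A lower median ratio beyond 100 kb was thus also seen in broad shared regions, on few regions with a wide spread. The part of the local background in the mutant to wild-type ratio was not tested.

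**Figure D4:**
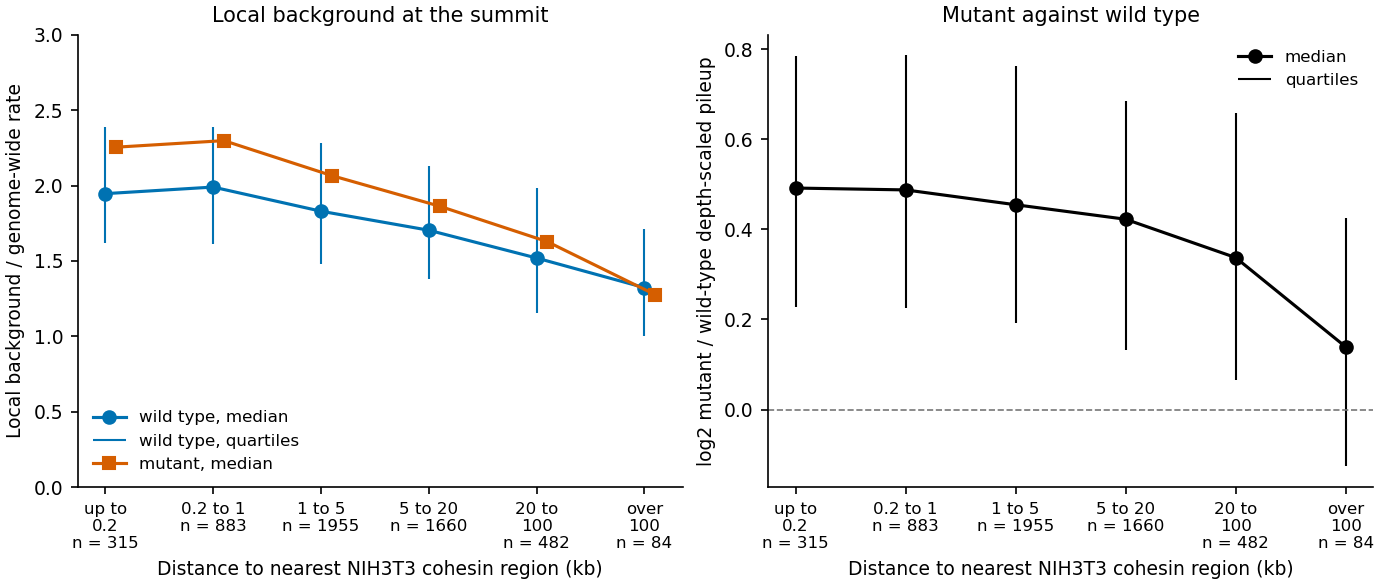
Left, the local background at the summit over the genome-wide rate (median and quartiles for wild type, median for the mutant) and, right, the log2 ratio of mutant to wild-type depth-scaled pileup (median and quartiles), both by distance to the nearest NIH3T3 cohesin region in kb, with the number of members under each step. The wild-type background goes from 1.95 to 1.32 and the log2 ratio from 0.49 to 0.14.

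Members were spread over all autosomes, from 128 on chromosome 18 to 428 on chromosome 11. Of the narrow shared regions as a whole 67.9% were without cohesin (66.9 to 68.9). On chromosome 1 the share was 76.4% (72.4 to 80.0), on chromosome 12 74.5% (68.9 to 79.6) and on chromosome 10 72.8% (68.4 to 76.8). On chromosome 3 it was 61.7% (56.6 to 66.6) and on chromosome 11 61.8% (58.0 to 65.4). The share is a value that the rule used, and the intervals treat regions as independent although 36 members lay within 500 kb of 1 place on chromosome 1, so these values describe the members only. The median log2 ratio of mutant to wild type ranged from 0.34 on chromosome 1 to 0.56 on chromosome 15, where all shared regions had medians of 0.38 and 0.56.

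**Figure D5:**
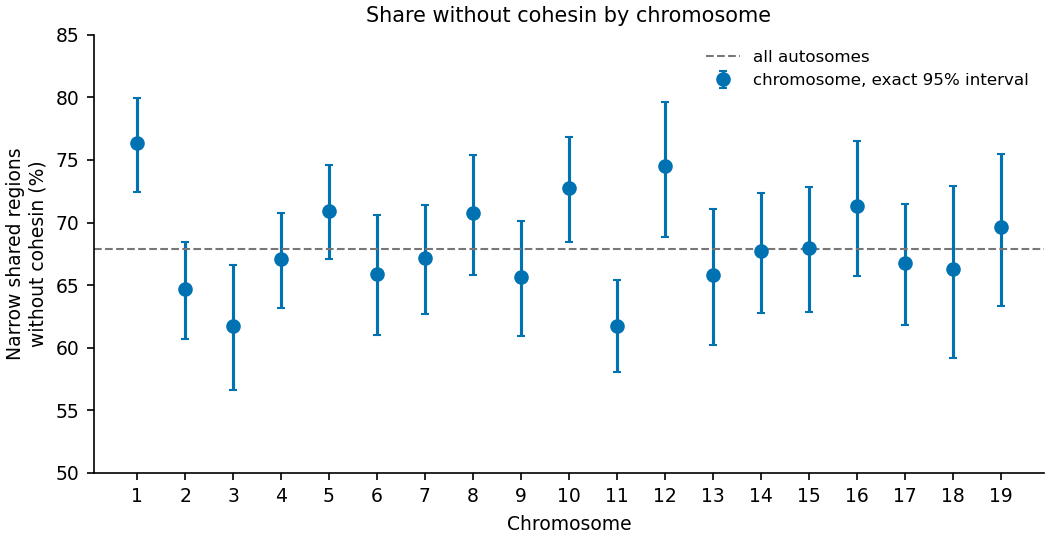
Share of narrow shared Snf2h regions that are without cohesin (y axis, percent, from 50 to 85) on each autosome (x axis), with exact 95% intervals, and the share over all autosomes (dashed line, 67.9%). The shares run from 61.7% on chromosome 3 to 76.4% on chromosome 1.

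Another member lay within 10 kb, from midpoint to midpoint, of 15.4% of members (14.4 to 16.4). Counted within each class, this share was higher the more regions a class held: it was 20.5% for the 8546 regions without cohesin called in the mutant alone, 10.6% for the 3907 called in wild type alone, 9.47% for the 2544 narrow shared regions at cohesin sites and 7.09% for the 1283 broad shared regions without cohesin. Measured between region edges instead, any other Snf2h region lay within 10 kb of 48.2% of members and of 51.5% of narrow shared regions at cohesin sites. It lay within 1 kb of 14.5% and 19.7%. Because the measures differ, these shares are not on the same scale as those within a class.

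The densest 50 kb was chr1:85058665-85108664, with 10 members among 15 Snf2h regions. The local background there had a median over the 10 members of 13.3 times the genome-wide rate in wild type (range 2.68 to 18.6) and 15.2 times in the mutant (2.22 to 22.6), where the medians over all members were 1.80 and 2.00 and the maxima 21.7 and 26.2. Pileups ran from 33 to 156 in wild type (median 100) and from 25 to 165 in the mutant (median 88), and folds from 1.77 to 4.09 and from 1.84 to 3.87. The tallest site in it was chr1:85102322-85102820, with 156 and 165 fragments. Beside it, chr1:85101977-85102246 had 122 in each list and chr1:85094948-85095431 had 102 and 125. At the start of the window the background was lower, from 2.22 to 3.30 times the genome-wide rate, at chr1:85058665-85059003 with pileups of 40 and 25 and at chr1:85059750-85060151 with 33 and 26.

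A local background of at least 5 times the genome-wide rate in either list was found at 150 members (2.79%), against 342 of all shared regions (3.36%). Of the 150, 43 were on chromosome 1 and 28 lay within 500 kb of this window. Without such regions the share of members with another member within 10 kb was 13.3%, and the share of narrow shared regions on chromosome 1 without cohesin was 74.8% (70.7 to 78.7). With Snf2h regions limited to a −log10 q of at least 10, another member lay within 10 kb of 7.09%.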

How the data were processed

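Snf2h was mapped by ChIP-seq in wild-type and mutant CH12 cells, and SMC1, RAD21 and SMC3 in NIH3T3 cells with empty vector or BORIS. The 8 deposited peak lists give, per the file columns, region and summit positions, a score, a fold enrichment (ratio), and −log10 p and −log10 q, all as the authors deposited them. The submitters' processing notes name Bowtie2, Bowtie, SAMtools, MACS2 and deepTools 3.5.0 and the builds mm9 and hg19, with no role or order. Controls, cutoffs and filters are not given in the sources used here. A tag in the region names may mean pooled replicates, which is not stated, so each list was treated as 1 sample. The other 22 samples were not analysed here.

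Regions were merged where they overlapped or touched. The pileup and local background were recovered from each region's fold and −log10 p, assuming a Poisson test and a pseudocount of 1. The pileup came out whole (tolerance 0.001) in 100% of 17305 wild-type and 23868 mutant regions with −log10 p under 300. The lowest background of a list was taken as its genome-wide rate, and pileups were divided by it. Read totals were not used. Shares carry exact Clopper-Pearson 95% intervals, which cover counting error only. With 1 list a group no test between lines was made. The merging, distances and recovery were tested on simulated data. Python 3.11.15, numpy 2.4.6, pandas 2.3.3, scipy 1.17.1 and matplotlib 3.10.9 were used.

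The members and lists were chosen with earlier results of these data known. Named regions, with chromosome 18 left out, were the 8 strongest in both lists, the 4 with the largest gain and the 4 with the largest loss of rank, the 3 on either side of the width limit, the 3 nearest to and the 3 farthest from cohesin, up to 8 in the densest 50 kb and the 3 nearest the median rank. Alternatives varied the width limit, the overlap, the −log10 q minimum, the cohesin lists and the chromosomes. Promoter, GC content and CTCF motif analyses were planned and not run, since no genome or annotation of the lists' build was used here.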

Additional observations from a re-analysis of the deposited data

How the results depend on the processing

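Of 120 values of 8 results under 15 alternatives, 35 moved and 85 did not, where the number of members was held to a factor of 1.5 and the other results to the 95% interval of their reported value. Within that factor the number of members still ranged from 4181 to 5994. Limiting Snf2h regions to a −log10 q of at least 10 left 1242 members, with 76.5% of narrow shared regions without cohesin, summits 15 bp apart, 82.0% wider in the mutant, cohesin at 3853 bp, 7.09% with another member within 10 kb and median percentiles of 45.4 in wild type and 46.2 in the mutant, below the middle rather than above it. With widths under 400 bp the share without cohesin was 69.6%, the summit distance 28 bp, the share wider in the mutant 76.5% and the share within 10 kb 11.9%. With widths under 600 bp the share without cohesin was 66.6%, the summit distance 33 bp and the share within 10 kb 16.8%. Equal numbers of Snf2h regions gave 69.2%, 27 bp, 77.3% wider in the mutant and 13.9% within 10 kb. Requiring no cohesin within 1 kb gave a share without cohesin of 52.8%, a cohesin distance of 5476 bp and 13.1% within 10 kb, as its construction sets. Fewer cohesin regions gave larger shares without cohesin and larger distances, also by construction: 70.7% and 4639 bp with regions called in at least 2 lists, 74.9% and 6188 bp with a −log10 q of at least 10, 70.0% and 4100 bp without SMC1, 69.2% and 3995 bp without SMC3, 70.2% and 4489 bp with empty-vector lists only, and 70.6% and 4318 bp with BORIS lists only. Leaving out regions with a local background of at least 5 times the genome-wide rate was chosen after seeing the data and gave 13.3% within 10 kb. For the other values that moved the cause was not tested. An overlap of at least 50%, leaving out RAD21 and adding chromosomes X and Y moved none of the 8 results. The alternatives for promoter share, GC content and the CTCF motif were not run. No paired analysis was possible because each line had 1 list. Depth limits the precision of single regions, since the median member rests on 27 fragments in wild type and 29 in the mutant.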
